A study of Mus musculus with 12 samples.

Results

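The immediate early AP-1 and EGR genes described here are 10 mouse genes: Fos, Fosb, Fosl1, Fosl2, Jun, Junb, Egr1, Atf3, Ier2 and Ier3. They were taken by gene symbol, whatever their values, from the 35599 genes of an expression table of lung RNA from 12 mouse samples, 4 in each of 3 groups. ND-RHL lungs came from mice challenged with bleomycin, which scars the lung, and lipopolysaccharide, a bacterial product that inflames it, and then given liposomes. These liposomes held nintedanib, a receptor tyrosine kinase inhibitor, together with dexamethasone, a synthetic glucocorticoid, and bore hyaluronic acid and RGD peptides. AE-PF lungs came from mice given the same challenge, as a model of an acute exacerbation of pulmonary fibrosis, and no treatment. Saline lungs served as controls. ND-RHL and AE-PF thus share the challenge and differ in the liposomes, and ND-RHL and saline differ in both. The sources used here give no strain, age, sex, doses or times, and liposomes without drugs or drugs without liposomes were not analysed here. The labels do not say that the 4 samples of a group were separate animals, so the spread behind every p-value is that between samples and may be partly technical.

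Immediate early genes are transcribed within minutes of a stimulus from RNA polymerase that is already in place, without new protein synthesis, and most of their mRNAs are short-lived. Growth factors, inflammatory signals and stress reach them through MAP kinases, which act on serum response factor with its ternary complex factors and on CREB and ATF proteins. Fos and Jun proteins pair through leucine zippers into AP-1, which binds the motif TGACTCA. EGR1 is a zinc finger protein that binds GC-rich sites. In injured lung, AP-1 and EGR1 are known from other work for the control of matrix-degrading enzymes, cytokines and growth factors, and glucocorticoid receptor is known to restrain AP-1. Handling of tissue also induces these genes.

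The 250 bases before the transcription start of Jun, Junb and Fos are shown because these 3 genes encode partners in AP-1. Jun fell and Junb rose in AE-PF against saline lungs, and no difference between groups was established for Fos. Egr1, which had the largest difference between groups, is named only. They are RefSeq sequences of build GRCm38.p6, written 5′ to 3′ on the strand of the gene, with motif matches in capitals. The windows are chr4:95052223-95052472 on the minus strand for Jun, chr8:84978749-84978998 on the minus strand for Junb and chr12:85473640-85473889 on the plus strand for Fos.
Jun: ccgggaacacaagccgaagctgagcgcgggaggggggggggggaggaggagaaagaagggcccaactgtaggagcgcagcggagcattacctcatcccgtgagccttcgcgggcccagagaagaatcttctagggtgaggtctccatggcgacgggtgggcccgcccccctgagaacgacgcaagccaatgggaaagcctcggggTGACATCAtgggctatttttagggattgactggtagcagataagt
Junb: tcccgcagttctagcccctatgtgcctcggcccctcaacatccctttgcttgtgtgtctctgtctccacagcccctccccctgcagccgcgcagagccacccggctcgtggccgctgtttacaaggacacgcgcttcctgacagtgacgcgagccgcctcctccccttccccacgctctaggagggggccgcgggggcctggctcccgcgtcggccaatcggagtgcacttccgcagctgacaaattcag
Fos: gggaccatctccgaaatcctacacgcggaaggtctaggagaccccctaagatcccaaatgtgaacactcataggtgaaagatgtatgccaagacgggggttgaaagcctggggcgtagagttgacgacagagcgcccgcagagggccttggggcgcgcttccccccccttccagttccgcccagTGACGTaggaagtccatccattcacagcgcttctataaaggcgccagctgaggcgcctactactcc
Capitals mark TGACATCA in Jun, 45 to 38 bases before the start, and TGACGT in Fos, 66 to 61 bases before it. Junb had no match to the 5 motifs searched. These were the AP-1 motif TGACTCA, the related TGACNTCA, the CREB and ATF core TGACGT, the EGR motif GCGNGGGCG and the CArG box bound by serum response factor, on both strands. TGACNTCA and TGACGT share letters, so 1 stretch can match both. The search covered 7 members: Fos, Fosb, Fosl2, Jun, Junb, Atf3 and Ier3. Of these windows, 0 held TGACTCA, 1 held TGACNTCA (Jun), 2 held TGACGT (Fos and Atf3), 2 held GCGNGGGCG (Fosb and Fosl2) and 0 held a CArG box. In 32851 mouse promoter windows of this length, the shares were 4.46% for TGACTCA, 7.49% for TGACNTCA, 6.47% for TGACGT, 4.70% for GCGNGGGCG and 1.47% for the CArG box. A match is a string of letters in a window, not a measured binding site. Sites farther upstream than 250 bases, and any sites of Egr1, Ier2 and Fosl1, were not searched.

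Libraries held 16152379 to 21667129 fragments counted to genes. Values are FPKM, fragments scaled by gene length and by the total of the library. The test covered the 15164 genes that reached an FPKM of 1 in 4 or more libraries. Of the 10 genes, 9 passed this filter and Fosl1 did not. Markers of alveolar type 2 cells, 8 genes including Sftpc, were all present, as lung tissue should show. They summed to 10130 to 18073 FPKM in ND-RHL, 1639 to 5300 in AE-PF and 13653 to 17223 in saline lungs. Every AE-PF library thus lay below all others. The same held for 3 further lists. Club and secretory cell markers summed to 10875 to 24545, 5105 to 6544 and 30102 to 41737 FPKM in the same order. Ciliated cell markers summed to 192 to 302, 81.6 to 117 and 293 to 335 FPKM, and endothelial markers to 821 to 1165, 417 to 690 and 1112 to 1237. Markers of monocytes and macrophages, 9 of 9 at an FPKM of at least 1, summed to 212 to 420 in ND-RHL, 799 to 937 in AE-PF and 138 to 163 in saline lungs. Cardiac muscle markers summed to 137 to 711 FPKM in ND-RHL, 30.0 to 52.1 in AE-PF and 327 to 576 in saline lungs. Adipocyte markers summed to 24.2 to 922, 5.16 to 33.1 and 129 to 700 FPKM in the same order. What these differences between groups contribute to the values below was not tested. Within their groups, AE-PF library 2 and ND-RHL library 4 stood apart. Markers of stratified squamous epithelium summed to 5881 FPKM in ND-RHL library 4 and 1782 in AE-PF library 2, against at most 14.7 in the other 10 libraries. Skeletal muscle markers summed to 1724 FPKM in ND-RHL library 4 and 663 in AE-PF library 2, against at most 130 elsewhere. The values below are therefore also given without these libraries where that changes a call. In bulk lung RNA, fewer cells of a type and less RNA per cell cannot be told apart.

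In AE-PF lungs, Egr1 and Junb rose and Jun fell relative to saline lungs, while the other 6 genes tested did not pass the test. The threshold was an adjusted p of 0.05 in limma with Benjamini-Hochberg adjustment over the 15164 genes. Thus 3 of 9 genes passed, 2 higher and 1 lower, where 56.6% of all genes tested passed, 26.4% higher and 30.2% lower, so the share was below that of all genes. The median log2 difference of the 9 genes was 0.35, and that of all genes tested was -0.03. The comparison of ND-RHL with AE-PF lungs also had 3 of 9 genes past the threshold, Jun higher and Junb and Ier3 lower, where 41.8% of all genes passed, 24.3% higher and 17.4% lower. Its medians were -0.14 over the 9 genes and 0.06 over all genes. In ND-RHL against saline lungs, Jun was lower and was the only 1 of 9 to pass, where 21.9% of all genes passed, 13.3% higher and 8.65% lower, and the medians were -0.00 and 0.03. With the replicate numbers as a block, 0 of the 9 passed there, with Jun at a limma adjusted p of 0.0530. These comparisons share libraries pairwise, so their values are not independent of each other.

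**Figure D1:**
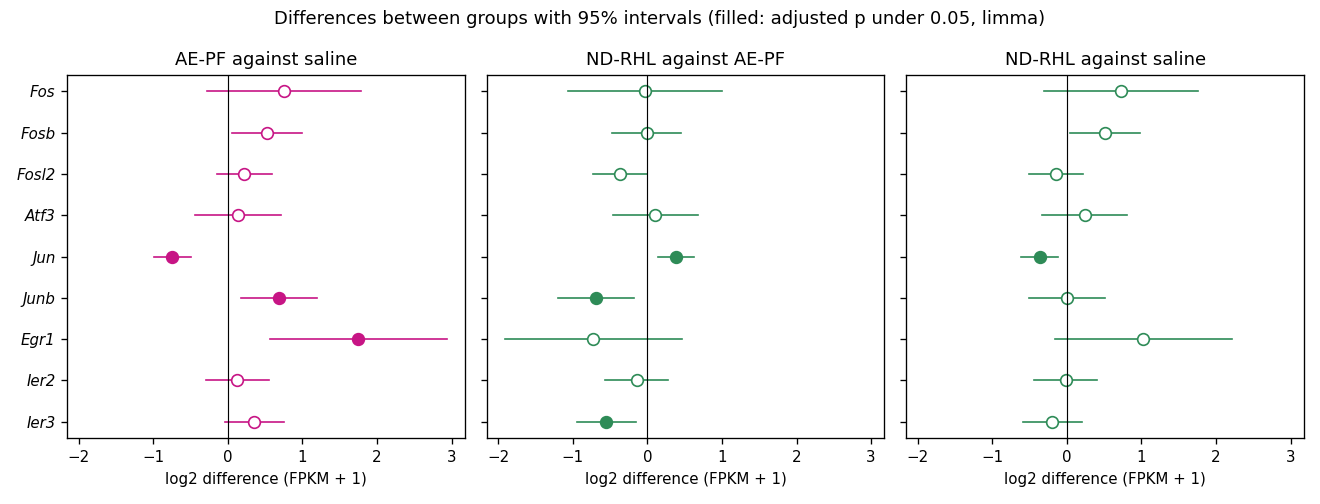
Log2 difference in FPKM + 1 between groups (x axis) for the 9 genes tested (y axis), with 95% intervals from limma, in AE-PF against saline, ND-RHL against AE-PF and ND-RHL against saline lungs. Filled circles mark an adjusted p under 0.05: Egr1, Junb and Jun in the first, Jun, Junb and Ier3 in the second and Jun in the third; the interval of Egr1 is the widest in each.

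These counts depended on the scaling. Rescaling each library to the same summed FPKM moved the median of all genes by 0.11 on the log2 scale in AE-PF against saline. It moved the higher share of all calls to 63.0% from 46.7% there, and to 37.8% from 58.2% in ND-RHL against AE-PF. Under it 5 of the 9 genes passed in AE-PF against saline, 4 higher and 1 lower, with Fosb (adjusted p = 0.0296) and Ier3 (adjusted p = 0.0456) added in limma. In ND-RHL against AE-PF, 0 were then higher and 3 lower, since Jun no longer passed and Fosl2 did (adjusted p = 0.0387 in limma). Quantile normalisation gave 46.4% of calls higher in ND-RHL against AE-PF, and 43.5% against 60.5% in ND-RHL against saline.

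Jun encodes the c-Jun subunit of AP-1, which pairs with Fos proteins or with itself and activates transcription, and it is known to bind and raise its own promoter. Its FPKM was 64.8, 77.8, 88.6 and 63.7 in ND-RHL lungs, 51.3, 49.5, 63.1 and 60.7 in AE-PF lungs, and 93.6, 102, 89.5 and 92.7 in saline lungs. The 3 groups did not overlap, with saline highest, ND-RHL between and AE-PF lowest, though ND-RHL library 3 came within about 1 FPKM of the lowest saline library and ND-RHL library 4 within 1 FPKM of the highest AE-PF library. Non-overlap was common: 54.3% of all genes tested separated AE-PF from saline in this way, 36.8% ND-RHL from AE-PF and 29.9% ND-RHL from saline. Median marker sums of endothelial, alveolar type 2, club and ciliated cells had the same order of groups as Jun. For endothelial markers they were 937 FPKM in ND-RHL, 551 in AE-PF and 1152 in saline lungs. Monocyte and macrophage markers had the reverse order, and the part of these cells was not tested. Jun fell in AE-PF against saline lungs by 0.75 on the log2 scale (95% interval -0.99 to -0.50, limma adjusted p = 0.000209). That fall passed under all 21 alternatives run, none of which turned its direction. Jun rose in ND-RHL against AE-PF lungs by 0.38 (0.14 to 0.63, limma adjusted p = 0.0187). The rise did not pass with equal FPKM totals (limma adjusted p = 0.0984), in a fit of the 2 groups alone (0.0514), without AE-PF library 1 (0.0570) or without AE-PF library 2 (0.0501), and over the 21 alternatives the adjusted p ran from 0.0106 to 0.0984. In ND-RHL against saline lungs Jun fell by 0.36 (-0.61 to -0.12, limma adjusted p = 0.0391). With the replicate numbers as a block, which the pairing check under the processing allows for this pair of groups only, the limma adjusted p was 0.0530. It was also above the threshold when any one saline library was left out (0.0595 to 0.106 in limma), without ND-RHL library 1 (0.0965), 2 (0.0577) or 4 (0.0952), with equal FPKM totals (0.0663), with no filter on low values (0.0832), and when ND-RHL library 4 and AE-PF library 2 were both left out (log2 difference -0.30, limma adjusted p = 0.0703). The fall passed under 10 of 21 alternatives, and all 21 kept its direction.

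Junb encodes a Jun protein that activates less strongly than c-Jun and can oppose it. Its FPKM was 50.1, 60.1, 29.4 and 36.8 in ND-RHL lungs, 66.1, 50.8, 86.4 and 78.2 in AE-PF lungs, and 42.3, 32.0, 47.5 and 51.2 in saline lungs. AE-PF lungs were highest, with AE-PF library 2 inside the range of both other groups. Junb rose in AE-PF against saline lungs by 0.68 on the log2 scale (95% interval 0.18 to 1.19, limma adjusted p = 0.0255). The rise did not pass without saline library 1 (adjusted p = 0.0511 in limma), saline library 2 (0.0773), AE-PF library 3 (0.0698) or AE-PF library 4 (0.0611), nor with no filter on low values (0.0542), and over the 21 alternatives the adjusted p ran from 0.0115 to 0.0773. Junb fell in ND-RHL against AE-PF lungs by 0.69 (-1.20 to -0.18, limma adjusted p = 0.0337). The fall did not pass without AE-PF library 1 (0.0625 in limma), 3 (0.0839) or 4 (0.0746), without ND-RHL library 3 (0.0954) or 4 (0.0745), in a fit of the 2 groups alone (0.0611) or with no filter on low values (0.0723), and over the 21 alternatives the adjusted p ran from 0.0139 to 0.0954. ND-RHL and saline lungs averaged 44.1 ± 13.7 and 43.2 ± 8.34 FPKM (SD, n = 4 each), a log2 difference of -0.00 with a 95% interval of -0.51 to 0.51, which leaves room for differences of some size in either direction. Junb overlaps Prdx2 on the opposite strand in the GENCODE M21 annotation of GRCm38. Prdx2 averaged 23.9 FPKM, and no source used here gives the strand setting of the counting, so reads in the overlap cannot be told apart. Jun overlaps the antisense gene Junos in the same way, at a mean of 1.64 FPKM.

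Within the Jun family, the proportions differed between groups more than the sum did. Jund, which encodes the remaining Jun protein, which is known for steady expression, was lower in AE-PF than in saline lungs, with 10.2 ± 0.426 against 14.9 ± 1.62 FPKM (SD, n = 4 each, limma adjusted p = 0.000269). The summed FPKM of Jun, Junb and Jund was 131 ± 15.5 in ND-RHL, 137 ± 22.4 in AE-PF and 153 ± 5.77 in saline lungs. Jun made up 56.3 ± 8.30% of that sum in ND-RHL, 41.3 ± 2.50% in AE-PF and 62.0 ± 5.22% in saline lungs (SD, n = 4 each). Every AE-PF library had more Junb than Jun, and every other library had less. The Junb to Jun ratio of FPKM was 0.773, 0.772, 0.331 and 0.577 in ND-RHL, 1.29, 1.03, 1.37 and 1.29 in AE-PF, and 0.452, 0.313, 0.531 and 0.552 in saline lungs. AE-PF did not overlap the other groups, which overlapped each other. This ratio was chosen after the values had been seen and is given as a description, without a test. It does not depend on the scaling of a library.

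**Figure D2:**
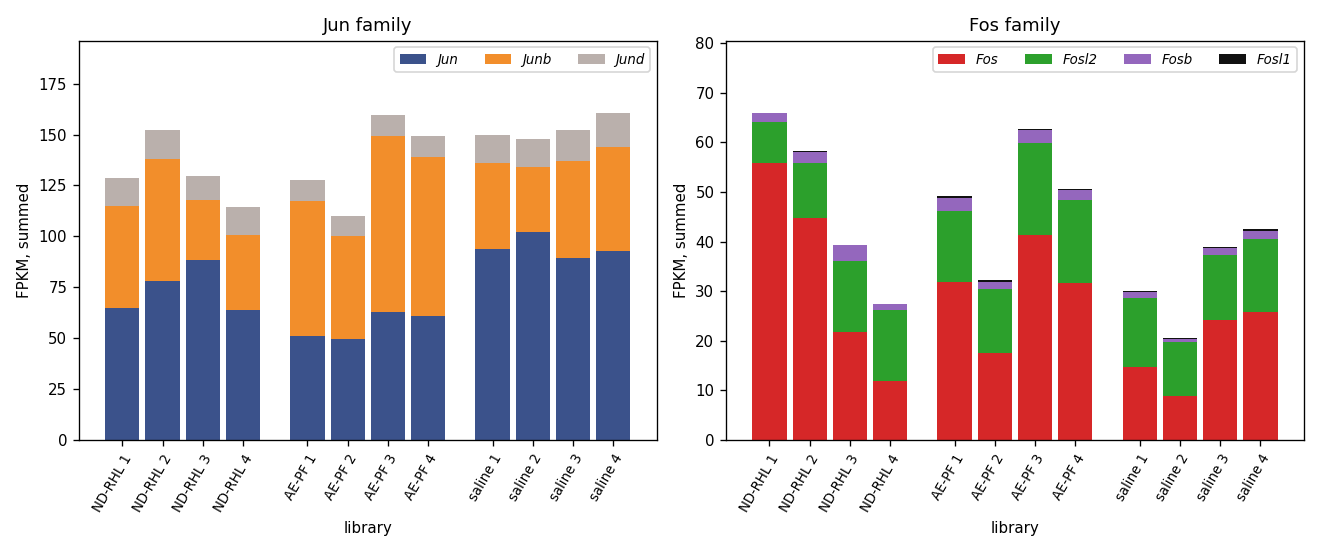
Summed FPKM (y axis) of the Jun family (left) and the Fos family (right) in each of the 12 libraries (x axis), with the genes stacked in colour. Junb is larger than Jun in the 4 AE-PF libraries and smaller in the other 8; Fosl1, drawn at the top of the right bars, is hardly visible at 0.0270 to 0.376 FPKM.

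Egr1 encodes a zinc finger activator induced by growth factors, mechanical stress and low oxygen, and known from mouse models for a part in lung fibrosis. Its FPKM was 33.3, 39.8, 16.2 and 6.94 in ND-RHL lungs, 32.2, 14.4, 59.7 and 45.1 in AE-PF lungs, and 9.69, 4.99, 11.8 and 12.7 in saline lungs. All AE-PF libraries were above all saline libraries, and the ND-RHL libraries spread over both, 3 above the highest saline library and library 4 inside the saline range. Egr1 rose in AE-PF against saline lungs by 1.75 on the log2 scale, a 3.36-fold difference (95% interval 1.48-fold to 7.65-fold, limma adjusted p = 0.0166). Without saline library 2 it was 1.49 with an adjusted p of 0.0512 in limma, and the other 20 alternatives passed, with an adjusted p of at least 0.000824. Between ND-RHL and AE-PF lungs the log2 difference was -0.73 (-1.91 to 0.46, limma adjusted p = 0.302), so neither a large fall nor a small rise lay outside the interval. Between ND-RHL and saline lungs it was 1.02 (-0.16 to 2.21, limma adjusted p = 0.198). When ND-RHL library 4 and AE-PF library 2, the pair with squamous and muscle transcripts, were left out, it was 1.49 with a limma adjusted p of 0.0167 and passed; no other alternative did, and their adjusted p reached 0.414.

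Egr2 and Egr3, further EGR genes, are induced by similar signals. Egr2 averaged 13.2 ± 5.80 FPKM in AE-PF and 1.93 ± 0.458 in saline lungs (SD, n = 4 each) and rose by 2.17 on the log2 scale (limma adjusted p = 0.000212). In ND-RHL lungs Egr2 was 4.11 ± 1.66 FPKM and lower than in AE-PF lungs by 1.40 on the log2 scale (limma adjusted p = 0.0059). Egr3 averaged 5.13 ± 2.85 FPKM in AE-PF and 1.21 ± 0.348 in saline lungs and also rose (log2 difference 1.37, limma adjusted p = 0.00226). Egr3 was 3.56 ± 1.13 FPKM in ND-RHL lungs, where it was higher than in saline lungs by 1.02 on the log2 scale (limma adjusted p = 0.0310), and its difference from AE-PF lungs was -0.35 and did not pass (limma adjusted p = 0.371). Egr4 was at a mean of 0.0136 FPKM in ND-RHL, 0.0408 in AE-PF and 0.0179 in saline lungs and was not tested. Nab1 and Nab2, which encode corepressors that bind EGR proteins, did not pass in either comparison. Nab1 averaged 27.2 ± 1.28 FPKM in ND-RHL, 28.5 ± 1.40 in AE-PF and 26.6 ± 1.57 in saline lungs. Nab2 averaged 5.75 ± 0.615, 6.02 ± 0.958 and 5.75 ± 0.332 FPKM in the same order.

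**Figure D3:**
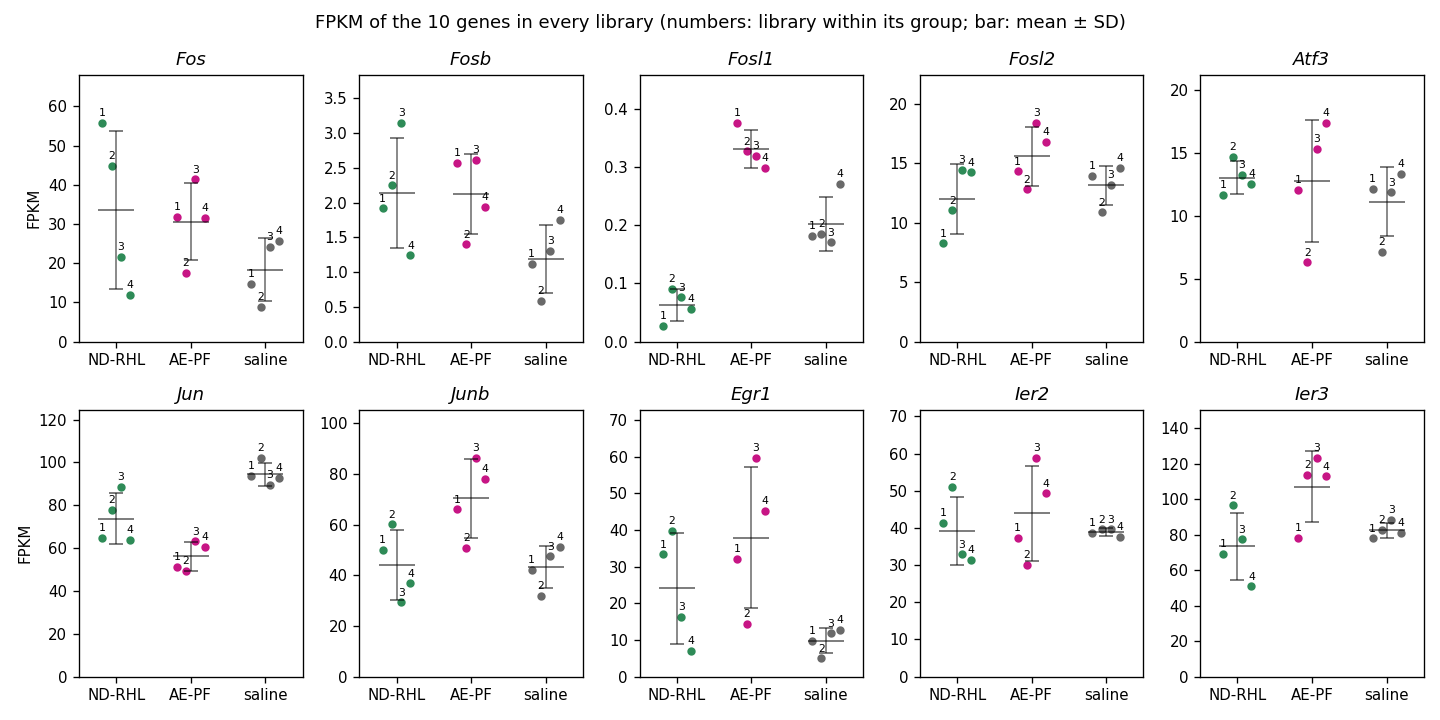
FPKM (y axis, from 0) of the 10 genes in each of the 12 libraries, by group (x axis: ND-RHL, AE-PF, saline), with the library number beside each point and the mean ± SD of each group as bars (n = 4). The groups separate for Jun and Fosl1; Fos and Egr1 spread from 12.0 to 55.8 and from 6.94 to 39.8 within ND-RHL lungs.

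Among the Fos proteins, none can pair with itself in mouse, and each needs a Jun partner. Fos encodes the founding member, with a potent activation domain and a very unstable mRNA. Its FPKM was 55.8, 44.8, 21.7 and 12.0 in ND-RHL lungs, 31.9, 17.6, 41.4 and 31.6 in AE-PF lungs, and 14.7, 8.81, 24.2 and 25.8 in saline lungs. All 3 groups overlapped, and the ND-RHL range enclosed the AE-PF range. The log2 differences were 0.76 in AE-PF against saline (95% interval -0.28 to 1.79), -0.04 in ND-RHL against AE-PF (-1.07 to 1.00) and 0.72 in ND-RHL against saline lungs (-0.31 to 1.75), with limma adjusted p of 0.192, 0.958 and 0.299. At this spread a doubling could be missed.

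Fosb, which encodes a Fos protein linked to sustained stimulation, was far lower than Fos, at 1.92, 2.25, 3.15 and 1.24 FPKM in ND-RHL, 2.57, 1.40, 2.61 and 1.94 in AE-PF, and 1.12, 0.588, 1.3 and 1.75 in saline lungs. The log2 difference of AE-PF against saline was 0.52 (0.06 to 0.99, limma adjusted p = 0.0545), just outside the threshold. It passed in limma without saline library 4 (adjusted p = 0.0316), AE-PF library 2 (0.0282), ND-RHL library 3 (0.0402) or ND-RHL library 4 (0.0359), and under 9 of 20 alternatives in all, with an adjusted p of 0.0144 to 0.155. ND-RHL against saline was 0.51 (0.05 to 0.98, limma adjusted p = 0.108), and it passed without ND-RHL library 4 (0.66, limma adjusted p = 0.0480). When ND-RHL library 4 and AE-PF library 2 were both left out, Fosb passed in AE-PF against saline (0.64, limma adjusted p = 0.0144) and in ND-RHL against saline lungs (0.66, limma adjusted p = 0.0296). ND-RHL and AE-PF lungs differed by -0.01 (-0.48 to 0.46).

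Fosl2 and Fosl1 encode the Fra proteins, which lack the activation domain of Fos. Fosl2, known for causing lung fibrosis when overexpressed in mice, had 8.28, 11.0, 14.5 and 14.2 FPKM in ND-RHL, 14.3, 12.8, 18.4 and 16.8 in AE-PF, and 13.9, 10.9, 13.2 and 14.6 in saline lungs, with overlap between all groups. Its log2 difference was 0.22 in AE-PF against saline (-0.14 to 0.59) and -0.37 in ND-RHL against AE-PF lungs (-0.73 to -0.00, limma adjusted p = 0.0957). The second passed when ND-RHL library 4 and AE-PF library 2 were left out (-0.54, adjusted p = 0.0351 in limma), and under 3 of 21 alternatives in all, with an adjusted p of up to 0.248. Fosl1 was the lowest of the 10, at 0.0270, 0.0914, 0.0761 and 0.0566 FPKM in ND-RHL, 0.376, 0.327, 0.320 and 0.299 in AE-PF, and 0.182, 0.186, 0.171 and 0.271 in saline lungs. These values rest on 1, 3, 3 and 2 fragments in ND-RHL, 13, 12, 11 and 11 in AE-PF, and 8, 7, 7 and 9 in saline libraries. The groups did not overlap, but each ND-RHL value rests on 3 or fewer fragments, so its counting error is large. With no filter on low values, the limma adjusted p was 0.0090 for AE-PF against saline (0.15 on the log2 scale), 0.000226 for ND-RHL against AE-PF (-0.32) and 0.0134 for ND-RHL against saline (-0.18). Fosl1 overlaps Ccdc85b on the opposite strand, which averaged 8.55 FPKM.

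Fos supplied 65.0 ± 19.0% of the summed Fos family FPKM in ND-RHL, 62.0 ± 5.05% in AE-PF and 53.8 ± 9.25% in saline lungs (SD, n = 4 each). In ND-RHL lungs this share was 84.5, 77.0, 55.1 and 43.5%, and the share of Fosl2 was 12.5, 19.0, 36.7 and 51.8%. The ND-RHL libraries thus ranged from mostly Fos to mostly Fosl2.

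Atf3, Ier2 and Ier3 complete the list. Atf3 encodes a stress-induced bZIP protein that pairs with Jun proteins and often represses. Its FPKM was 11.7, 14.7, 13.3 and 12.5 in ND-RHL, 12.1, 6.32, 15.4 and 17.4 in AE-PF, and 12.2, 7.16, 11.9 and 13.4 in saline lungs. Ier2, which encodes a nuclear protein without a DNA-binding domain of a known class, had 41.4, 51.0, 32.9 and 31.4 FPKM in ND-RHL, 37.4, 30.1, 58.9 and 49.3 in AE-PF, and 38.7, 39.7, 39.6 and 37.6 in saline lungs. For both genes all groups overlapped, and the log2 differences lay between -0.14 and 0.24 over the 3 comparisons, with limma adjusted p of 0.547 or more.

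Ier3 encodes a membrane-associated regulator of cell death and of NF-kappaB and ERK signalling. Its FPKM was 69.4, 96.5, 77.4 and 50.9 in ND-RHL, 78.2, 114, 123 and 113 in AE-PF, and 78.0, 82.8, 88.3 and 81.1 in saline lungs. Of the AE-PF libraries, 3 were above all others, and AE-PF library 1 lay at the saline minimum. Ier3 fell in ND-RHL against AE-PF lungs by 0.55 on the log2 scale (95% interval -0.95 to -0.16, limma adjusted p = 0.0294). The fall did not pass in limma without AE-PF library 2 (adjusted p = 0.0654), 3 (0.0724) or 4 (0.0624), without ND-RHL library 1 (0.0622) or 4 (0.0625), under quantile normalisation (0.0606), in a fit of the 2 groups alone (0.0760) or with no filter (0.0638). When ND-RHL library 4 and AE-PF library 2 were both left out, it was -0.35 with a limma adjusted p of 0.117, the highest of the 21 alternatives, of which 12 passed. In AE-PF against saline lungs the difference was 0.35 (-0.04 to 0.75, limma adjusted p = 0.116), and without AE-PF library 1 it was 0.50 and passed (limma adjusted p = 0.0304).

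Per unit of gene length, the order of the mean levels in saline lungs was Jun at 94.5 ± 5.41, Ier3 at 82.6 ± 4.32, Junb at 43.2 ± 8.34, Ier2 at 38.9 ± 0.993, Fos at 18.4 ± 8.03, Fosl2 at 13.2 ± 1.63, Atf3 at 11.1 ± 2.73, Egr1 at 9.79 ± 3.43, Fosb at 1.19 ± 0.482 and Fosl1 at 0.202 ± 0.0461 FPKM (SD, n = 4). Junb and Ier2 overlapped, as did Fos with Fosl2, Fosl2 with Atf3 and Atf3 with Egr1, while the other neighbours in this order did not. In AE-PF lungs the order opened with Ier3 at 107 ± 19.9, Junb at 70.4 ± 15.5, Jun at 56.1 ± 6.75, Ier2 at 43.9 ± 12.7 and Egr1 at 37.9 ± 19.3 FPKM, each overlapping the next. In ND-RHL lungs Jun at 73.7 ± 11.8 and Ier3 at 73.5 ± 18.9 FPKM led and overlapped.

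These genes varied more between libraries of 1 group than most genes did. The within-group SD on the log2 scale had a median of 0.135 over all genes tested. It was 0.85 for Egr1, larger than that of 98.4% of all genes, and 0.74 for Fos, larger than that of 97.8%. Jun was the steadiest of the 9 at 0.17, larger than 63.1%. In several libraries most of the genes deviated to the same side of the group mean. AE-PF library 3 was above the mean of its group for 9 of the 9 genes and AE-PF library 4 for 8, whereas AE-PF library 2 was above it for 1, with a mean deviation of -0.48 on the log2 scale. ND-RHL library 2 was above for 8 and ND-RHL library 4 for 1, with a mean deviation of -0.44. In other libraries the genes split: 4 of 9 were above the group mean in ND-RHL library 1 and 5 of 9 in ND-RHL library 3. Within ND-RHL lungs Fosl2 ran opposite to Fos and Egr1, with deviations of -0.46, 0.94 and 0.71 for Fosl2, Fos and Egr1 in library 1 and 0.26, -1.19 and -1.40 in library 4. AE-PF library 2 and ND-RHL library 4 are the libraries with squamous and muscle transcripts, whose part in these deviations was not tested. Saline library 2 was also low, with a mean deviation of -0.35 and 3 of 9 genes above, and its summed squamous markers were at 1.36 FPKM. Other marker sums differed between libraries of a group as well. In AE-PF libraries 1 to 4, alveolar type 2 markers summed to 2907, 1639, 5300 and 4965 FPKM. Fibroblast markers summed to 1861, 2013, 1342 and 1303 FPKM there. The part of these cells in the deviations was not tested.

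**Figure D4:**
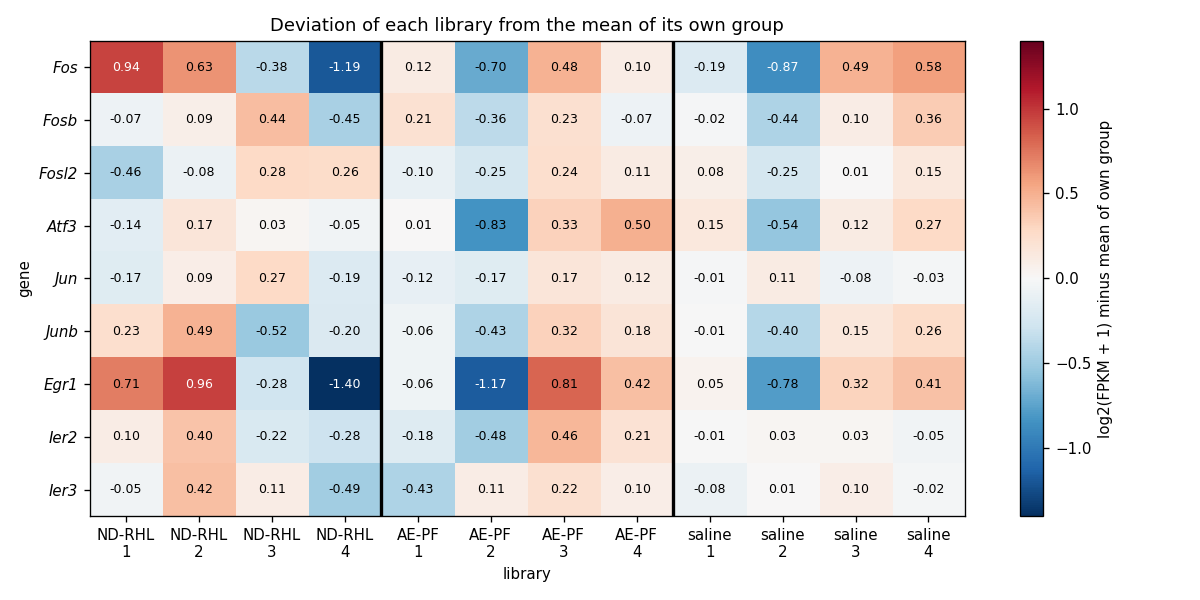
Deviation of each library (columns) from the mean of its own group, in log2(FPKM + 1), for the 9 genes tested (rows), with red above and blue below the mean. AE-PF library 2, ND-RHL library 4 and saline library 2 are mostly blue, with -1.17, -1.40 and -0.78 for Egr1, and Jun deviates by at most 0.27.

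For each of the 9 genes, the most similar other genes were those with the smallest root mean square difference over the 12 libraries in log2(FPKM + 1), after the saline mean of each gene was subtracted. For Egr1 this was Ccn1, an immediate early gene for a secreted matrix protein, at 0.38, followed by Clec7a and Ndnf at 0.54. For Jun it was Stard9 at 0.061, Zscan26 at 0.068 and Stard13 at 0.072, all of which were lowest in AE-PF lungs. For Junb it was Cxcl1 at 0.25, a chemokine gene at 0.614 FPKM in ND-RHL, 1.76 in AE-PF and 0.887 in saline lungs, then Tgif1 and B4galt5. Fos was nearest to Ccr2 at 0.43, the chemokine receptor gene of inflammatory monocytes, with 15.4 FPKM in ND-RHL, 18.0 in AE-PF and 8.94 in saline lungs. Fosb was nearest to Atp8b4, Fosl2 to Tnfrsf10b, Atf3 to Tgtp1, Ier2 to Aplp1 and Ier3 to Il34, at 0.12 to 0.22. Among the 9 themselves, the nearest gene to Jun was Ier2 at 0.59 and the nearest to Egr1 was Fos at 0.65.

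Other immediate early genes also moved in both directions. Of 26 tested of a list of 27, 7 rose and 4 fell in AE-PF against saline lungs, with a median log2 difference of 0.06. Among all genes tested, 26.4% rose and 30.2% fell, so the share that rose was close to that of all genes. Myc, which drives cell growth, averaged 13.4 ± 3.93 FPKM in AE-PF and 4.10 ± 0.878 in saline lungs (SD, n = 4 each, limma adjusted p = 0.000702). Plk3, a stress-responsive kinase gene, rose by 1.09 on the log2 scale (limma adjusted p = 0.00104). Klf2, a transcription factor gene of quiescent endothelium, fell to 67.4 ± 28.0 FPKM in AE-PF lungs, against 126 ± 6.13 in saline lungs (limma adjusted p = 0.0143). Endothelial markers, 8 of 8 present, summed to 821 to 1165 FPKM in ND-RHL, 417 to 690 in AE-PF and 1112 to 1237 in saline lungs, and their part in the fall of Klf2 was not tested. Without saline library 4, without AE-PF library 1 or with equal FPKM totals, 2 genes of the list fell.

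In ND-RHL against AE-PF lungs, 3 genes of this list rose and 6 fell, with a median log2 difference of -0.04. Among all genes tested, 24.3% rose and 17.4% fell. Nr4a1, an orphan nuclear receptor gene, had 36.9, 55.0, 81.7 and 41.1 FPKM in ND-RHL, 14.6, 6.73, 33.9 and 26.2 in AE-PF, and 13.1, 8.74, 19.0 and 21.7 in saline lungs. All ND-RHL libraries were above all others. Nr4a1 rose by 1.50 on the log2 scale in ND-RHL against AE-PF lungs (limma adjusted p = 0.0195), unlike Egr2, Myc, Plk3, Gadd45g, Ier5 and Ier5l, which fell. The rise did not pass without AE-PF library 1 (limma adjusted p = 0.0525) or ND-RHL library 3 (0.0587). Without either of these libraries, 1 gene of the list rose. Nr4a2 and Tiparp were the others that rose. Nr4a2 (log2 difference 0.65, limma adjusted p = 0.0259) did not pass when any one of AE-PF libraries 1 and 2 or ND-RHL libraries 3 and 4 was left out (limma adjusted p of 0.0537 to 0.0749). It did not pass when both ND-RHL library 4 and AE-PF library 2 were (0.111 in limma), nor with no filter (0.0579), quantile normalisation (0.0553) or only the 2 groups (0.0664). Tiparp did not pass with equal FPKM totals (limma adjusted p = 0.173). In ND-RHL against saline lungs, 13.3% of all genes tested rose and 8.65% fell. Of this list 2 rose and 3 fell there, and these counts were 7 and 5 when ND-RHL library 4 and AE-PF library 2 were left out. Leaving out 1 library gave 0 higher without saline library 1 or 2, 1 without saline library 3 or ND-RHL library 2, and 5 without ND-RHL library 1.

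Of 12 other bZIP genes of the AP-1 family, 4 rose and 4 fell in AE-PF against saline lungs, and 1 rose and 4 fell in ND-RHL against AE-PF lungs, with medians of -0.06 and -0.11. Of all genes tested, 26.4% rose and 30.2% fell in the first comparison and 24.3% rose and 17.4% fell in the second. Maf, which encodes a large Maf transcription factor, averaged 5.68 ± 0.993 FPKM in ND-RHL, 10.2 ± 2.18 in AE-PF and 3.97 ± 0.306 in saline lungs (SD, n = 4 each). It rose in AE-PF against saline (limma adjusted p = 3.75e-05) and fell in ND-RHL against AE-PF lungs (limma adjusted p = 0.00158). Batf3, known for its part in dendritic cell development, averaged 2.62 ± 0.585 FPKM in ND-RHL, 4.55 ± 0.805 in AE-PF and 1.38 ± 0.312 in saline lungs, and it and Maff moved in the same directions. Jund was the gene that rose in ND-RHL against AE-PF lungs, to 13.5 ± 1.16 FPKM. Monocyte and macrophage markers, at 212 to 420 FPKM in ND-RHL, 799 to 937 in AE-PF and 138 to 163 in saline lungs, moved with these genes, and their part was not tested. With equal FPKM totals, 2 of the list fell in AE-PF against saline lungs.

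Upstream, 17 genes of serum response factor, its cofactors and MAP kinases changed little in size. In AE-PF against saline lungs 6 rose and 3 fell, and in ND-RHL against AE-PF lungs 3 rose and 6 fell, with medians of 0.09 and -0.03. The shares of all genes tested were 26.4% higher and 30.2% lower in the first comparison, and 24.3% and 17.4% in the second. Mrtfb, a coactivator gene of serum response factor, had the largest rise, at 0.51 on the log2 scale (limma adjusted p = 0.000111). With equal FPKM totals, the first counts were 10 and 1 and 0 rose in the second, so these directions depended on the scaling. Quantile normalisation gave 5 lower in the first. In the second, leaving out AE-PF library 1 or 2 or ND-RHL library 1 or 2 left 1 higher, and leaving out saline library 2 or 3, AE-PF library 1 or 3 or ND-RHL library 1 left 2 or 3 lower.

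Of 17 feedback inhibitors of MAP kinase and EGR signalling, 5 rose and 6 fell in AE-PF against saline lungs, and 3 rose and 3 fell in ND-RHL against AE-PF lungs, where 26.4% and 24.3% of all genes rose and 30.2% and 17.4% fell. Dusp6, a phosphatase gene for ERK that follows ERK activity, averaged 34.7 ± 4.91 FPKM in ND-RHL, 65.7 ± 11.7 in AE-PF and 37.8 ± 2.82 in saline lungs (SD, n = 4 each). It rose in AE-PF against saline (limma adjusted p = 0.00047) and fell in ND-RHL against AE-PF lungs (limma adjusted p = 0.000428). Spred1 did the same, and Spred2, Spry1 and Spry2 moved the opposite way in both comparisons. In ND-RHL against AE-PF lungs, 1 inhibitor gene rose with equal FPKM totals. Without saline library 1 or 2 or AE-PF library 3 or 4, 2 inhibitor genes rose in AE-PF against saline lungs, and without saline library 3, 3 did. Dusp1, a phosphatase gene that glucocorticoids induce, had 71.1 ± 13.5 FPKM in ND-RHL, 57.5 ± 11.5 in AE-PF and 68.8 ± 20.3 in saline lungs and did not pass in any comparison.

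Most genes reported in other work as AP-1 targets rose in AE-PF against saline lungs and fell in ND-RHL against AE-PF lungs. Of 15 tested of a list of 16, 13 rose and 1 fell in AE-PF against saline lungs, and 0 rose and 13 fell in ND-RHL against AE-PF lungs. The median log2 differences were 0.84 and -1.01. The 0 is from limma, where 0 were also higher at an unadjusted p under 0.05, as in limma-voom on fragments, while the fit without ND-RHL library 2 called 1 higher. Among all genes tested, 26.4% rose and 30.2% fell in the first comparison, with a median log2 difference of -0.03. In the second, 24.3% of all genes rose and 17.4% fell, with a median of 0.06. Timp1, a protease inhibitor gene, averaged 13.2 ± 6.05 FPKM in ND-RHL, 177 ± 43.8 in AE-PF and 6.78 ± 0.559 in saline lungs (SD, n = 4 each). Mmp14, a membrane-bound collagenase gene, averaged 24.3 ± 3.91 FPKM in ND-RHL, 88.7 ± 17.1 in AE-PF and 15.5 ± 1.19 in saline lungs. Mmp9 was the gene that fell in AE-PF against saline lungs, to 4.40 ± 0.168 FPKM in AE-PF lungs, against 11.5 ± 2.45 in saline lungs (limma adjusted p = 5.31e-05). Of 10 reported EGR1 targets, 5 rose and 2 fell in AE-PF against saline lungs, and 1 rose and 5 fell in ND-RHL against AE-PF lungs, with medians of 0.16 and -0.21. Fgf2, Thbs1 and Tgfb1, which encode a growth factor, a matrix protein and a cytokine of fibrosis, rose in the first and fell in the second comparison. Vegfa was lower in AE-PF than in saline lungs, with 123 ± 40.8 against 259 ± 28.4 FPKM (limma adjusted p = 0.0015). The remaining gene that fell there was Id3, which did not pass with equal FPKM totals or with the replicate block, nor when any one of saline libraries 1, 2 and 3 or AE-PF libraries 1 and 2 was left out. The rise of Vegfa in ND-RHL against AE-PF lungs did not pass when any one of AE-PF libraries 1 and 2 or ND-RHL libraries 1, 2 and 3 was left out (limma adjusted p of 0.0529 to 0.0967), nor with equal FPKM totals, only the 2 groups or no filter (0.0785 to 0.0826 in limma). These lists were chosen with results of these data known, and many of their genes also respond to other factors. Monocyte and macrophage markers moved in the same directions as most of the reported AP-1 targets. They summed to 212 to 420 FPKM in ND-RHL, 799 to 937 in AE-PF and 138 to 163 in saline lungs. The part of these cells was not tested.

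**Figure D5:**
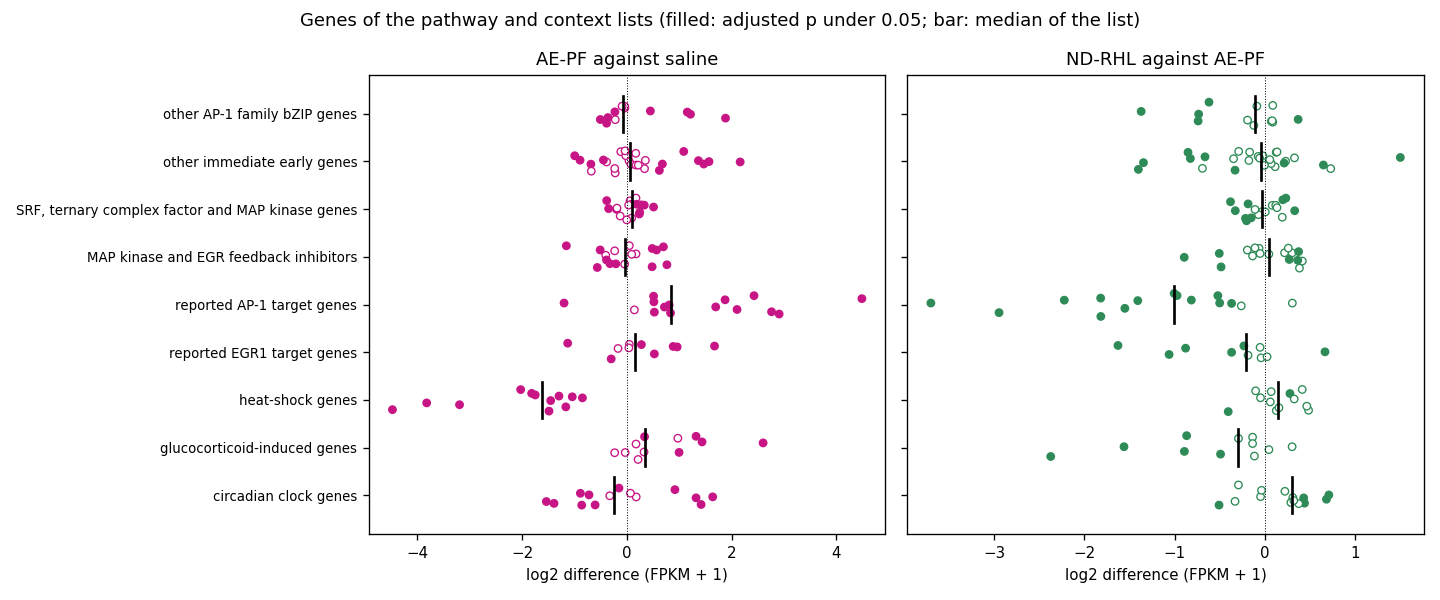
Log2 difference in FPKM + 1 (x axis) of each gene tested in 9 lists (rows) in AE-PF against saline (left) and ND-RHL against AE-PF lungs (right), with filled points for a limma adjusted p under 0.05 and a bar at the median of the list. The reported AP-1 targets have medians of 0.84 and -1.01, and the heat-shock genes lie below 0 on the left for 12 of 12 genes.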

How the data were processed

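Lung RNA of 12 mouse samples was sequenced after capture of polyadenylated mRNA, per the labels' protocols, and groups and library numbers were taken from the sample titles. The authors deposited 1 table of FPKM values, without pooling. Per the submitters' processing notes, the tools included STAR 2.7.9a, Trim Galore 0.6.6, FastQC, Subread 2.0.1 with featureCounts, and DESeq2 1.30.1; the notes give them no role or order. Whole fragments were recovered from FPKM for 35589 of 35599 genes (99.97%, tolerance 1e-05), which gave the depths; at these depths, counting error weighs only on genes with few fragments, such as Fosl1.

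Differences were tested on log2(FPKM + 1) in R 4.3.3 with limma 3.58.1. This scale understates the change of low genes. The model had a variance trend, 2-sided tests, Benjamini-Hochberg adjustment, and 1 spread shared by all libraries with 9 residual degrees of freedom. Alternatives were pseudocount 0.1, no filter, an FPKM minimum of 5, equal FPKM totals, quantile normalisation, a replicate block, only the 2 groups compared, limma-voom on the recovered fragments, and leaving out libraries. The procedure was tested on simulated data.

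Samples with the same number deviated together in ND-RHL and saline lungs. Correlations over genes were 0.397, 0.188, 0.114 and 0.173 there for libraries 1 to 4. Same-numbered samples did not deviate together in AE-PF and saline (0.065, -0.181, 0.065 and -0.107) or in ND-RHL and AE-PF lungs (0.059, -0.361, 0.339 and -0.387). The main fit did not use the numbers as pairs for any comparison. They entered only the replicate block, an alternative fitted over all 12 libraries, AE-PF included.

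Members and gene lists were chosen with earlier results of these data known. Named were the 10 members, up to 3 genes per list and direction with the smallest adjusted p, and the 3 nearest patterns per member; other genes were named after their values were seen. Positions are those of GENCODE M21 on GRCm38 by gene identifier, since the positions in the table are not of that build.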

Additional observations from a re-analysis of the deposited data

Results flagged for a closer look

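Of 36 groups of 4 libraries checked, over the FPKM of the 10 genes and the Junb to Jun and Egr1 to Jun ratios, 1 held a library that stood apart from the others of its group, and chance does so in about 1 in 20 groups. Fosl1 was at 0.271 FPKM in saline library 4, against 0.182, 0.186 and 0.171 in saline libraries 1 to 3. The gap to the nearest library made up 0.850 of the group's range, above the 95% critical value of Dixon's test for 4 samples. The value rests on 9 fragments, against 8, 7 and 7 in the other saline libraries.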

How the results depend on the processing

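Of the 9 genes tested, 3 passed in AE-PF against saline, and 5 did so with equal FPKM totals and 1 to 4 when 1 library was left out. In ND-RHL against AE-PF 3 passed, against 0 in a fit of only the 2 groups and 1 to 3 when 1 library was left out. In ND-RHL against saline 1 passed, against 0 with equal FPKM totals, 0 with the replicate block, 2 when ND-RHL library 4 and AE-PF library 2 were both left out, and 0 to 1 when 1 was. The block left 2 genes past the threshold in AE-PF against saline and 3 in ND-RHL against AE-PF, where the numbers only name the samples; Junb did not pass in either (limma adjusted p of 0.0548 and 0.0689) and Fosl2 did in the second (0.0426). The cause of these shifts was not tested. Calls under the 21 alternatives held in 21 for Jun, 20 for Egr1 and 15 for Junb in AE-PF against saline, in 17 for Jun, 13 for Junb and 12 for Ier3 in ND-RHL against AE-PF, and in 10 for Jun in ND-RHL against saline. Reversed log2 differences were all of genes that did not pass there. With equal FPKM totals they were -0.00090 for Atf3 in ND-RHL against AE-PF, and 0.016 for Junb and 0.0032 for Ier2 in ND-RHL against saline. With ND-RHL library 4 and AE-PF library 2 left out they were 0.13 for Fos, 0.018 for Fosb and -0.16 for Atf3 in ND-RHL against AE-PF, and 0.065 for Junb and 0.079 for Ier2 in ND-RHL against saline. Leaving out 1 library moved Atf3 from -0.046 to 0.41 and Ier2 from -0.026 to 0.29 in AE-PF against saline. In ND-RHL against AE-PF it moved Fos from -0.35 to 0.36, Fosb from -0.16 to 0.14, Atf3 from -0.17 to 0.27 and Ier2 from -0.30 to 0.010. In ND-RHL against saline it moved Fosl2 from -0.24 to 0.0065, Junb from -0.17 to 0.17 and Ier2 from -0.15 to 0.079. Over all genes, 8578 passed in AE-PF against saline and 5710 at an FPKM minimum of 5, where fewer genes were tested, and 3323 passed in ND-RHL against saline, but 2083 without saline library 1 and 2008 without saline library 2.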

Other observations

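Heat-shock genes, which stress induces alongside immediate early genes, were far lower in challenged lungs. All 12 listed genes fell in AE-PF against saline lungs and in ND-RHL against saline lungs in limma, with median log2 differences of -1.62 and -1.50. Of all genes tested, 30.2% and 8.65% fell in these comparisons. Hsp90aa1, a chaperone gene, averaged 119 ± 12.3 FPKM in ND-RHL, 97.7 ± 10.4 in AE-PF and 330 ± 34.3 in saline lungs (SD, n = 4 each). Hspa1b, an inducible HSP70 gene, averaged 6.27 ± 3.22 FPKM in ND-RHL, 4.45 ± 0.514 in AE-PF and 120 ± 2.12 in saline lungs, and is uncertain because Hspa1a is a near-identical copy. Between ND-RHL and AE-PF lungs 1 of the 12 rose and 1 fell, with a median of 0.14, where 24.3% of all genes rose and 17.4% fell. Under the alternatives 0 to 2 of the 12 were higher and 1 to 2 lower. These alternatives include leaving out single libraries.

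A list of 12 genes that glucocorticoids induce had 11 tested. In limma 5 of them were higher and 0 lower in AE-PF than in saline lungs, and 0 were higher and 5 lower in ND-RHL, whose liposomes carried dexamethasone, than in AE-PF lungs. Each 0 was also 0 at an unadjusted p under 0.05 and in limma-voom on fragments. The medians were 0.34 and -0.29. Over all genes tested, 26.4% were higher and 30.2% lower in the first comparison, and 24.3% and 17.4% in the second. Fkbp5, a chaperone gene induced by the glucocorticoid receptor, averaged 3.24 ± 0.849 FPKM in ND-RHL, 24.1 ± 15.2 in AE-PF and 2.57 ± 0.250 in saline lungs. AE-PF libraries 1 and 2 stood apart from 3 and 4, with 30.2, 42.8, 12.0 and 11.3 FPKM of Fkbp5 and 18.4, 18.1, 4.24 and 3.62 FPKM of Zbtb16, a transcription factor gene of the list, in libraries 1 to 4. In the same AE-PF libraries B and plasma cell markers, 6 of 6 present, summed to 2300, 1723, 519 and 335 FPKM, and alveolar macrophage markers, 7 of 7 present, to 1111, 815, 448 and 370 FPKM. The B and plasma cell markers ranged from 338 to 1371 FPKM in ND-RHL and 73.2 to 123 in saline lungs, and the alveolar macrophage markers from 383 to 568 in ND-RHL and 425 to 598 in saline lungs. Further lists split AE-PF libraries 1 to 4 the same way, including neutrophil markers at 262, 388, 195 and 197 FPKM and fibroblast markers. Alveolar type 2, endothelial, T cell and natural killer cell markers split the opposite way, the last at 5.80, 2.57, 18.5 and 16.3 FPKM. The part of these cells was not tested. In ND-RHL against saline lungs 2 genes of the list rose, where 13.3% of all genes did. Only 1 of the list rose when saline library 1, saline library 2 or ND-RHL library 2 was left out. Of 14 circadian clock genes, 4 rose and 7 fell in AE-PF against saline lungs, and 5 rose and 6 fell in ND-RHL against saline lungs. All genes tested had shares of 26.4% higher and 30.2% lower in the first, and 13.3% and 8.65% in the second. Nr1d1, a repressor gene of the clock, averaged 28.5 ± 6.21 FPKM in ND-RHL, 17.2 ± 2.67 in AE-PF and 8.62 ± 1.36 in saline lungs. Times of collection were not analysed here.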
